A study of Mus musculus with 6 samples.

Results

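The genes described here are 47 genes of the ATF4 and amino acid stress response, compared between *Rdh10* KO and wild-type mouse eye tissue. They comprise 4 eIF2alpha kinases, 11 genes of the ATF4 branch, 12 enzymes of serine, one-carbon and amino acid metabolism, 8 amino acid carriers and 12 cytosolic aminoacyl-tRNA synthetases. The genes were chosen by name while the differences between these same libraries were already known, so that their differences between genotypes are given as a description and not as a test of the genes. They are 47 of the 26437 genes with values, and all 47 are among the 22921 genes tested, which had a mean above 0.5 normalized counts over the 6 libraries.

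RNA-seq was performed on E10 eye tissue, which was the front of the head with the optic vesicles and the frontonasal region and is labelled embryonic craniofacial. One group was WT and the other was *Rdh10*-/- (*Rdh10* KO), which lacks the retinol dehydrogenase that starts the synthesis of retinoic acid (RA) from retinol. Each group had 3 libraries (n = 3), and each library was a pool of 3 embryos, so that the spread between libraries is a spread between pools. The *Rdh10* KO embryos had heterozygous parents, and all embryos were of an outbred mixture of Black Swiss and C57BL/6. The sex of the embryos is not given in the sources used here.

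A normalized count is the number of reads on a gene divided by 1 factor for its library. Reads on genes numbered 16392777 to 27101025 per library, and 3 reads correspond to 2.15 to 3.53 normalized counts. Pairs of replicate libraries differed by 2.83 to 6.0 times counting noise in wild-type and by 13.5 to 19.0 times in *Rdh10* KO (chi-square per degree of freedom). *Rdh10* itself had 342 to 399 normalized counts in wild-type and 142 to 183 in *Rdh10* KO. All 8 markers of the eye field, 8 of facial mesenchyme and 5 of forebrain were detected in both groups. The summed level of the facial mesenchyme markers was 13781 to 14023 normalized counts in wild-type and 11666 to 12073 in *Rdh10* KO. For the eye field it was 6784 to 7063 and 5922 to 8456, and for forebrain 5422 to 5977 and 4896 to 6665. Markers of other cell types differed as well. The 6 endothelial markers summed to 2895 to 3361 in wild-type and 4253 to 4470 in *Rdh10* KO, and 4 of them rose, against 10.3% of all genes tested. Of the 6 fits with a library left out, *Pecam1* and *Kdr* passed in 6, *Cdh5* in 3 and *Tie1* in 1. The groups of *Tek* and *Emcn* overlapped. The 8 embryonic blood markers summed to 99754 to 134086 in wild-type, and in *Rdh10* KO to between 50619 in replicate 1 and 155111 in replicate 3, and no single one passed (limma; the groups of the sum overlapped). The 7 markers of trophoblast and placenta in the table summed to 28.9 to 40.9 in wild-type, and to 88.2 to 117 in *Rdh10* KO. Of these, *Prl2c2*, *Prl3d1* and *Prl8a2* were at 0 in every wild-type library, and 3 of the 6 tested rose (*Ascl2*, *Prl3d1* and *Prl8a2*). *Prl2c2* had 1 read in *Rdh10* KO replicate 1 only and was not tested. *Gcm1* went the other way, from 0.94 to 2.23 in wild-type to 0 in every *Rdh10* KO library, and did not pass. *Plac1* had 21.1 to 35.8 in wild-type and 21.2 to 26.7 in *Rdh10* KO, which overlapped. *Hand1* had 0.94 to 4.09 and 5.73 to 11.8, and did not pass. The 7 heart markers summed to 72.4 to 104 and 121 to 277, and 1 of them rose. This was *Actc1*, the largest part of the sum in *Rdh10* KO, with 35.7 to 66.8 in wild-type and 87.4 to 248 in *Rdh10* KO. Of the 7, 4 had a log2 fold change above 0 and 3 below 0. Among the latter, *Myl7* had 15.58 to 28.65 in wild-type and 6.44 to 11.77 in *Rdh10* KO, and did not pass. The 7 yolk sac markers summed to 87.0 to 123 and 108 to 172, and 1 rose (*Rbp4*, which passed in 1 of the 6 fits with a library left out). The 9 immediate early genes, which respond to handling of tissue, summed to 3057 to 3561 and 3289 to 3533, and 6 rose and 1 fell. The part of these cell types in the results for the 47 genes was not tested, and in bulk tissue fewer cells of a type and less RNA per cell cannot be told apart.

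The eIF2alpha kinases phosphorylate the alpha subunit of the translation initiation factor eIF2, each in response to a different stress. Phosphorylated eIF2 slows most protein synthesis while the *Atf4* mRNA is translated more efficiently, so that the ATF4 protein can increase with little change in its mRNA. ATF4 pairs with other basic leucine zipper proteins, among them those of the C/EBP family, and activates genes for the synthesis, uptake and tRNA charging of amino acids. Neither phosphorylation nor protein was measured here.

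Heterodimers of ATF4 and C/EBP proteins are known to bind the C/EBP-ATF response element, whose core was searched as TGATGNAA (TTNCATCA on the opposite strand). No other motif was searched. RefSeq promoters of the GRCm38.p6 assembly, from 250 bases before to 50 bases after the transcription start, were matched to 39 of the 47 genes, and 15 of these 39 (38.5%) held the core on either strand. Among all genes of the table with a promoter it was held by 445 of 14883 (2.99%), and among all RefSeq promoters by 1304 of 32851 (3.97%). Since the 47 were chosen as genes of the ATF4 response, these shares are a description and not a test. The genes with no matched promoter were *Aldh1l2*, *Slc7a3*, *Slc7a5*, *Slc1a5*, *Cars*, *Lars*, *Nars* and *Wars*. The sequences around the core are given for 6 of the genes whose mean differed by more than 1.5-fold between genotypes (*Chac1*, *Vldlr*, *Nupr1*, *Pck2*, *Asns* and *Pycr1*), for 3 genes that hold the same core and differed little (*Slc7a11*, *Got1* and *Aars*), and for *Atf3*, an ATF4 target outside the 47. They lie at chr2:119351013-119351092 (*Chac1*, plus strand), chr19:27216784-27216863 (*Vldlr*, plus), chr7:126625537-126625616 (*Nupr1*, minus), chr14:55540127-55540206 (*Pck2*, plus), chr6:7693210-7693268 (*Asns*, minus), chr11:120643808-120643887 (*Pycr1*, minus), chr3:50443636-50443715 (*Slc7a11*, minus), chr19:43524664-43524743 (*Got1*, minus), chr8:111033694-111033773 (*Aars*, plus) and chr1:191183400-191183479 (*Atf3*, minus). Each is written from 5′ to 3′ on the strand of its gene, upstream of the start, with the matched core in capitals.
Chac1: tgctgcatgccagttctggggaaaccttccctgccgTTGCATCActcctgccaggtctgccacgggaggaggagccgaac
Vldlr: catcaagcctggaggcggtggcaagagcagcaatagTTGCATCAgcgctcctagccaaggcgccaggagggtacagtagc
Nupr1: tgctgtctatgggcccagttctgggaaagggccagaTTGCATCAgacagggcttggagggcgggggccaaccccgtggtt
Pck2: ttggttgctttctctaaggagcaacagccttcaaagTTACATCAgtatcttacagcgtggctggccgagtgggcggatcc
Asns: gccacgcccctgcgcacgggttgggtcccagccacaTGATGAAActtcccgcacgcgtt
Pycr1: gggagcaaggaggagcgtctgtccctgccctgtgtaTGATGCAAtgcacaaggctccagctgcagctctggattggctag
Slc7a11: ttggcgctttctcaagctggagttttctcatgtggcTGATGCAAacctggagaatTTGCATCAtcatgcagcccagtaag
Got1: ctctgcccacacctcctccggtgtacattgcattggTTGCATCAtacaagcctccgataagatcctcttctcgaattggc
Aars: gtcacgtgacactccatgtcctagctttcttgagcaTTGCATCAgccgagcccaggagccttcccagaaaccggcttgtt
Atf3: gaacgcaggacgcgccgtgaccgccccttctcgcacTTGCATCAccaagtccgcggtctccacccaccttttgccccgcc

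The core of *Asns* and *Pycr1* reads in the direction of the gene, that of *Chac1*, *Vldlr*, *Nupr1*, *Pck2*, *Got1*, *Aars* and *Atf3* reads against it, and *Slc7a11* holds the core once in each direction. Counting the first transcribed base as 1, the match begins at −193 in *Chac1*, −200 in *Vldlr*, −110 in *Nupr1*, −103 in both *Pck2* and *Pycr1*, and −23 in *Asns*. The matches of *Slc7a11* begin at −66 and −47, that of *Got1* at −102, and those of *Aars* at −112 and 10. The other genes with the core were *Trib3*, *Slc1a4*, *Gars*, *Iars*, *Tars* and *Yars*. It was found in 5 of 8 synthetases with a promoter, 4 of 11 genes of the ATF4 branch, 4 of 11 enzymes, 2 of 5 carriers and 0 of 4 kinases. A match describes the letters of a promoter and is not evidence of binding.

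**Figure D1:**
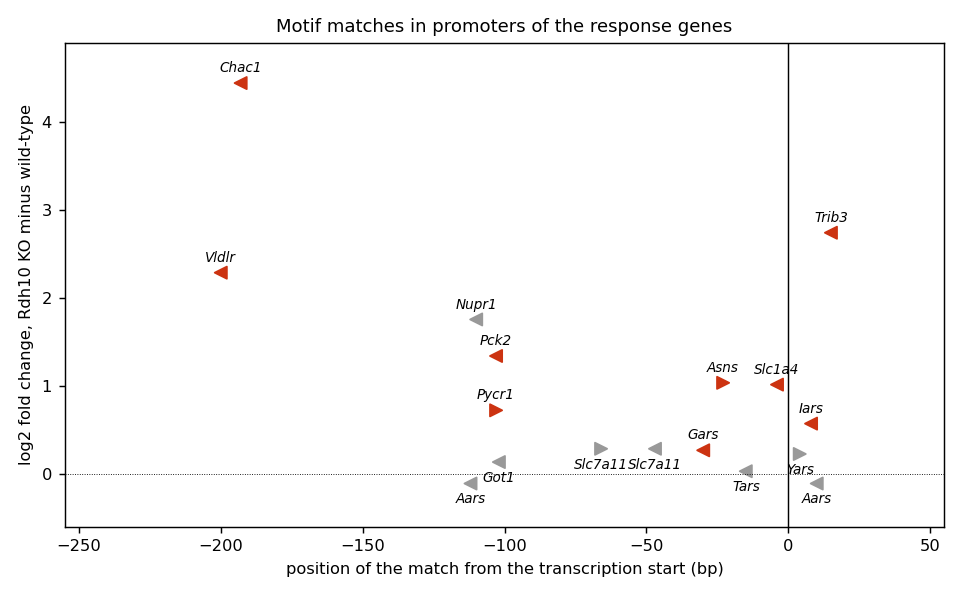
Position of each core match in bases from the transcription start (x axis) against the log2 fold change of the gene, *Rdh10* KO minus wild-type (y axis). Right-pointing and left-pointing triangles mark cores that read with and against the gene, and red marks genes with an adjusted p under 0.05; the 15 genes run from *Aars* at −0.11 to *Chac1* at 4.44.

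Most of the 47 genes were higher in *Rdh10* KO eye tissue, and the log2 fold changes ranged from −0.48 to 4.44. Expression of *Chac1*, *Slc7a3*, *Trib3*, *Vldlr*, *Ddit3* and *Aldh1l2* was several-fold higher, whereas *Atf4* mRNA was 1.25-fold higher and the first and last enzymes of serine synthesis, *Phgdh* and *Psph*, were slightly lower without passing the test. A log2 fold change is the *Rdh10* KO mean minus the wild-type mean of log2(normalized count + 0.1), and a gene is said to have risen or fallen at an adjusted p under 0.05 (limma, Benjamini-Hochberg over the 22921 genes). By this measure 29 of the 47 genes rose, 2 fell (*Eif2ak1* and *Wars*) and 16 did not pass. Of all genes tested, 10.3% rose and 9.12% fell. With a log2 cut-off of 0.85 added, 13 of the 47 rose, against 2.41% of all genes, and no gene of the 47 passed the cut-off downwards, against 0.886% of all genes (the lowest log2 fold change of the 47 was −0.48). Every *Rdh10* KO value lay above every wild-type value for 34 genes and below for 4, and the groups overlapped for 9. Over all genes tested, the groups lay apart in these directions for 17.6% and 17%. Since the genes were chosen with this contrast known, nothing is read from these counts about the response as a whole. The median log2 fold change was 0.48 over the 47 genes and 0.00 over all genes. In limma without its intensity trend 12 of the 47 rose and 0 fell, with 28 higher and 3 lower at an unadjusted p under 0.05. In that fit 448 of all 22921 genes rose and 197 fell.

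**Figure D2:**
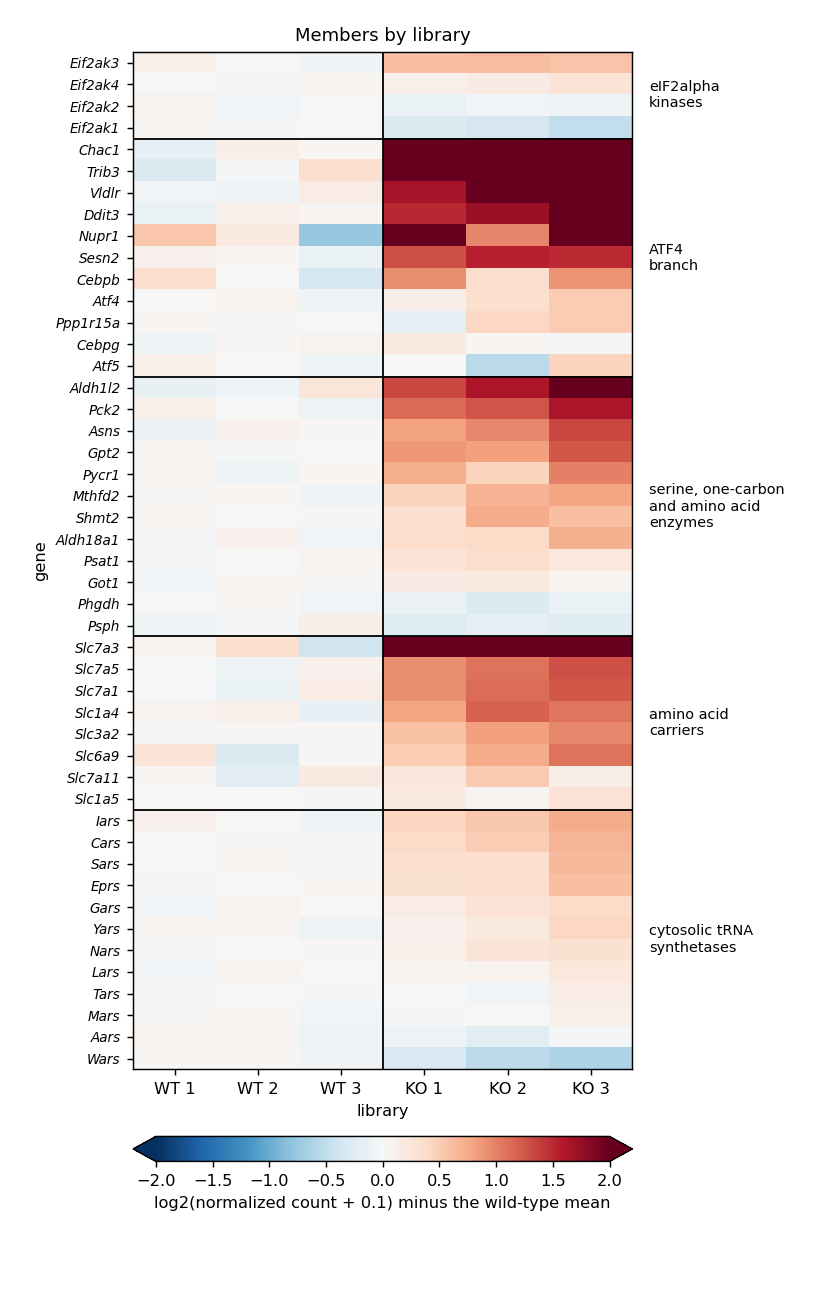
Each of the 47 genes (rows, by group) in each of the 6 libraries (columns), coloured by log2(normalized count + 0.1) minus the wild-type mean, with the scale ending at 2 in either direction. Columns of *Rdh10* KO are red for most rows, with a median over the 47 genes of 0.33, 0.41 and 0.60 in replicates 1 to 3.

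The 4 eIF2alpha kinases did not move together. *Eif2ak3* (PERK, which responds to unfolded proteins in the endoplasmic reticulum) had 342, 317 and 303 normalized counts in wild-type and 486, 490 and 475 in *Rdh10* KO, a log2 fold change of 0.60 (SE 0.10). Its groups lay far apart, and it rose. *Eif2ak1* (HRI, which responds to heme shortage) had 1525, 1462 and 1474 in wild-type and 1224, 1174 and 1058 in *Rdh10* KO, a log2 fold change of −0.37 (SE 0.08), and it fell with no overlap between groups. *Eif2ak4* (GCN2, the sensor of uncharged tRNA) had 928, 902 and 951 in wild-type and 992, 1043 and 1115 in *Rdh10* KO. The groups of *Eif2ak4* did not overlap, but its log2 fold change of 0.18 (SE 0.08) did not pass. *Eif2ak2* (PKR, which responds to double-stranded RNA) had 421, 387 and 400 in wild-type and 365, 388 and 380 in *Rdh10* KO (log2 fold change −0.09, SE 0.10), and its groups overlapped.

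In the ATF4 branch 7 of 11 genes rose and 4 did not pass, with a median log2 fold change of 1.45. *Atf4* itself (ENSMUSG00000042406.7, chr15:80255184-80257541, plus strand, GRCm38) had 3002, 3165 and 2838 normalized counts in wild-type and 3277, 3727 and 4270 in *Rdh10* KO. All *Rdh10* KO values were the higher ones, but the lowest of them was close to the highest wild-type value. The log2 fold change of *Atf4* was 0.32 (SE 0.09), and it passed in 1 of the 6 fits with a library left out. It did not pass without wild-type replicate 1 (0.32), 2 (0.36) or 3 (0.28) or without *Rdh10* KO replicate 2 (0.32) or 3 (0.22). Its close relative *Atf5* had 703, 655 and 620 in wild-type and 659, 452 and 894 in *Rdh10* KO, which overlapped, and its log2 fold change of −0.03 (SE 0.18) became 0.22 without *Rdh10* KO replicate 2.

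The largest difference among the 47 genes was that of *Chac1*, an enzyme that degrades glutathione. *Chac1* (ENSMUSG00000027313.3, chr2:119351229-119354381, plus strand) had 8.18, 10.02 and 9.40 normalized counts in wild-type, from 8, 9 and 10 reads, and 200, 249 and 164 in *Rdh10* KO. The *Rdh10* KO mean was 22.2 times the wild-type mean, with a log2 fold change of 4.44 (SE 0.27). *Trib3* (chr2:152337422-152344032, minus strand), a pseudokinase that restrains ATF4 and AKT, had 30.7, 36.7 and 47.0 in wild-type and 218, 281 and 260 in *Rdh10* KO (log2 fold change 2.74, SE 0.20). *Vldlr* (chr19:27216484-27254231, plus strand), a lipoprotein and reelin receptor, had 207, 200 and 236 in wild-type and 671, 1665 and 1018 in *Rdh10* KO (2.29, SE 0.23). For each of these 3 genes all *Rdh10* KO values were more than the highest wild-type value by a wide margin, and *Vldlr* varied most among the *Rdh10* KO libraries.

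*Ddit3* encodes CHOP, a transcription factor tied to cell death under lasting stress. It had 98.2, 115 and 110 normalized counts in wild-type and 304, 355 and 535 in *Rdh10* KO (log2 fold change 1.85, SE 0.18). *Sesn2*, a leucine sensor that restrains mTORC1, had 517, 501 and 444 in wild-type and 1191, 1432 and 1374 in *Rdh10* KO (1.45, SE 0.10). Both genes were high in every *Rdh10* KO library and low in every wild-type library. *Nupr1*, a small stress-induced chromatin protein, had 7.16, 5.56 and 2.82 in wild-type and 20.1, 9.60 and 23.5 in *Rdh10* KO. Its groups did not overlap, and its log2 fold change of 1.76 (SE 0.59) did not pass. It passed with a pseudocount of 1 (1.58), among genes with a mean above 10 (1.76), in both edgeR tests (1.77) and DESeq2 (1.79), all with the 6 libraries, and without *Rdh10* KO replicate 2 (2.15). *Cebpb*, a C/EBP partner of ATF4, had 75.7, 59.0 and 46.1 in wild-type and 112, 75.7 and 111 in *Rdh10* KO (0.73, SE 0.24). It rose narrowly, and did not pass without wild-type replicate 2 (0.73) or 3 (0.55) or *Rdh10* KO replicate 1 (0.63) or 3 (0.64). *Cebpg*, another C/EBP partner, had 1689 to 1897 in wild-type and 1775 to 2044 in *Rdh10* KO (0.06, SE 0.08), and the groups overlapped. *Ppp1r15a* (GADD34), which returns eIF2 to its unphosphorylated form, had 235, 225 and 227 in wild-type and 200, 304 and 325 in *Rdh10* KO (0.24, SE 0.16). *Rdh10* KO replicate 1 of *Ppp1r15a* lay below wild-type and the other two above it, and the gene passed without that replicate (0.46).

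**Figure D3:**
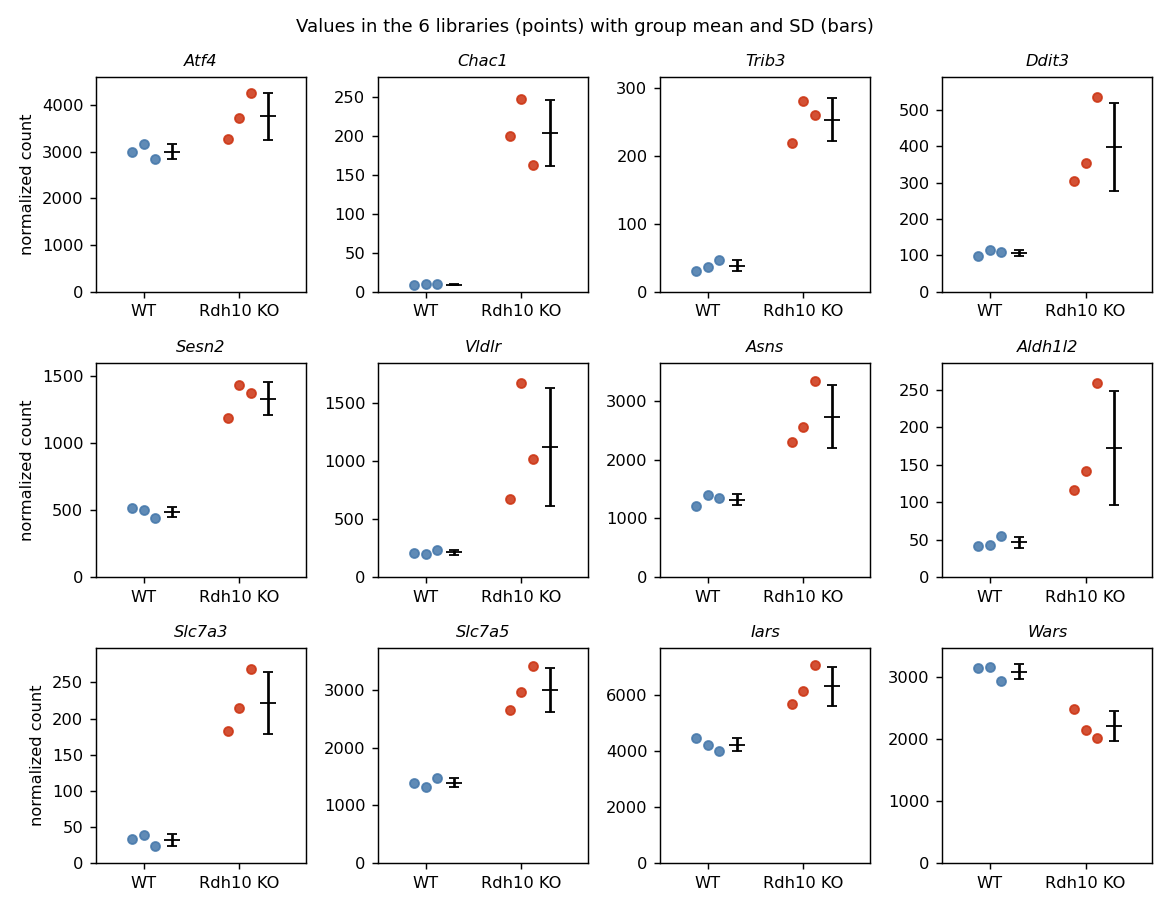
Normalized counts (y axis, from 0) of 12 of the genes in the 3 wild-type (blue) and 3 *Rdh10* KO (red) libraries, with the mean and SD of each group beside the points. The groups lie apart in all 12 panels, with *Wars* lower and the other genes higher in *Rdh10* KO.

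Among the 12 enzymes 9 rose and 3 did not pass, with a median log2 fold change of 0.60. *Asns*, which makes asparagine from aspartate, had 1213, 1394 and 1342 normalized counts in wild-type and 2297, 2555 and 3333 in *Rdh10* KO, a log2 fold change of 1.04 (SE 0.11). *Pck2*, the mitochondrial phosphoenolpyruvate carboxykinase, had 386, 364 and 336 in wild-type and 793, 864 and 1118 in *Rdh10* KO (1.34, SE 0.12). *Gpt2*, a mitochondrial alanine aminotransferase, had 959, 912 and 928 in wild-type and 1697, 1651 and 2202 in *Rdh10* KO (0.98, SE 0.10). Each of these genes was about doubled or more, and in each *Rdh10* KO replicate 3 was the highest library. *Aldh18a1* and *Pycr1*, which act at either end of proline synthesis from glutamate, also rose, by 0.48 (SE 0.09) and 0.72 (SE 0.13). *Got1*, the cytosolic aspartate aminotransferase, had 1189 to 1267 in wild-type and 1280 to 1418 in *Rdh10* KO, which did not overlap, and did not pass (0.14, SE 0.08).

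Of the 3 enzymes that make serine from a glycolytic intermediate, the first, *Phgdh*, had 3634, 3738 and 3489 normalized counts in wild-type and 3340, 2987 and 3284 in *Rdh10* KO (log2 fold change −0.18, SE 0.07). The second, *Psat1*, had 6263, 6388 and 6659 in wild-type and 7719, 8177 and 7480 in *Rdh10* KO (0.28, SE 0.06). The third, *Psph*, had 532, 554 and 609 in wild-type and 473, 501 and 475 in *Rdh10* KO (−0.22, SE 0.09). *Phgdh* and *Psph* were lower in every *Rdh10* KO library and did not pass, whereas *Psat1* was higher in every one and rose, but did not pass without wild-type replicate 1 (0.26) or 2 (0.27). *Shmt2*, *Mthfd2* and *Aldh1l2*, which act on one-carbon units in mitochondria, rose. *Shmt2*, which splits serine into glycine and a one-carbon unit, had 2661, 2590 and 2515 in wild-type and 3245, 4341 and 3912 in *Rdh10* KO (0.56, SE 0.09). *Mthfd2*, which oxidises the folate-bound unit, had 1564, 1580 and 1464 in wild-type and 2097, 2492 and 2663 in *Rdh10* KO (0.65, SE 0.09). *Aldh1l2*, which oxidises it further to carbon dioxide, had 41.9, 43.4 and 54.5 in wild-type and 117, 142 and 259 in *Rdh10* KO (1.81, SE 0.26). The difference of *Aldh1l2* was the largest of the enzymes, at the lowest level of them.

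Among the 8 amino acid carriers 6 rose and 2 did not pass, with a median log2 fold change of 0.90. *Slc7a3* (chrX:101079210-101086020, minus strand), a cationic amino acid carrier, had 32.7, 39.0 and 23.5 normalized counts in wild-type and 183, 214 and 268 in *Rdh10* KO, a mean 6.99 times that of wild-type (log2 fold change 2.81, SE 0.23). *Slc7a1*, a carrier of the same cations, had 610, 559 and 677 in wild-type and 1167, 1325 and 1446 in *Rdh10* KO (1.09, SE 0.10). Both were high in all *Rdh10* KO libraries and low in all wild-type libraries. *Slc7a5* (LAT1), which takes up leucine and other large neutral amino acids, had 1390, 1312 and 1474 in wild-type and 2646, 2963 and 3408 in *Rdh10* KO (1.10, SE 0.09). *Slc3a2* (4F2hc), the heavy chain that *Slc7a5* and *Slc7a11* need to reach the cell surface, had 1557, 1627 and 1627 in wild-type and 2398, 2836 and 3118 in *Rdh10* KO (0.79, SE 0.09). *Slc7a11* (xCT), which takes up cystine in exchange for glutamate, had 165, 137 and 181 in wild-type and 186, 229 and 173 in *Rdh10* KO (0.29, SE 0.16). Of these 3 subunits *Slc7a11* alone had overlapping groups. *Slc1a4* (ASCT1), a carrier of small neutral amino acids, had 462, 475 and 392 in wild-type and 763, 1003 and 931 in *Rdh10* KO (1.02, SE 0.11). Its relative *Slc1a5* (ASCT2), which takes up glutamine, had 979, 980 and 952 in wild-type and 1110, 1006 and 1181 in *Rdh10* KO (0.18, SE 0.08), and did not pass although its groups lay apart. *Slc6a9* (GlyT1), a glycine carrier, had 185, 128 and 157 in wild-type and 221, 260 and 329 in *Rdh10* KO (0.78, SE 0.17), and rose.

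The 12 cytosolic aminoacyl-tRNA synthetases, which load each tRNA with its amino acid, included both genes that rose and 1 that fell. Of these genes 6 rose, 1 fell and 5 did not pass, with a median log2 fold change of 0.22 and all between −0.48 and 0.57. *Iars* (isoleucine) had 4473, 4212 and 3978 normalized counts in wild-type and 5682, 6134 and 7067 in *Rdh10* KO (log2 fold change 0.57, SE 0.08). *Cars* (cysteine) had 1209, 1227 and 1169 in wild-type and 1566, 1714 and 1928 in *Rdh10* KO (0.53, SE 0.08). *Wars* (tryptophan; chr12:108860030-108894174, minus strand) had 3152, 3158 and 2942 in wild-type and 2484, 2143 and 2017 in *Rdh10* KO (−0.48, SE 0.08). The groups of each of these 3 genes lay apart, with *Wars* in the opposite direction. *Sars* (serine) rose by 0.43 (SE 0.08) and *Eprs* (glutamate and proline) by 0.42 (SE 0.08). *Gars* (glycine) rose by 0.27 (SE 0.07), but did not pass without wild-type replicate 1 (0.24), 2 (0.30) or 3 (0.26). *Nars* (asparagine) rose by 0.22 (SE 0.07) and passed in 1 of the 6 fits with a library left out. It did not pass without wild-type replicate 1 (0.20), 2 (0.23) or 3 (0.24) or without *Rdh10* KO replicate 2 (0.21) or 3 (0.18). The log2 fold changes of *Yars* (0.23), *Lars* (0.10), *Tars* (0.03), *Mars* (0.02) and *Aars* (−0.11) did not pass. *Yars* (tyrosine) lay apart in the groups and passed without *Rdh10* KO replicate 1 (0.30), and those of leucine, threonine, methionine and alanine overlapped.

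The mitochondrial synthetases that are encoded by separate genes can be set beside the cytosolic ones for the same amino acid, as a description and not a test. Of 17 such genes 2 rose, 4 fell and 11 did not pass, with a median log2 fold change of −0.04 (of all genes, 10.3% rose and 9.12% fell). These counts depended on single libraries: without wild-type replicate 1, 2 or 3, 0, 0 and 1 rose and 2, 0 and 1 fell, and without *Rdh10* KO replicate 1 or 3, 1 rose. *Cars2* was at −0.55 (SE 0.13, adjusted p = 0.00906, limma) where *Cars* was at 0.53. Leaving out wild-type replicate 2 brought *Cars2* to −0.46 (adjusted p = 0.0731, limma). *Yars2* had −0.43 (SE 0.11, adjusted p = 0.0105, limma), and the adjusted p was 0.0572 and 0.0571 without wild-type replicate 2 or 3. *Wars2* was higher at 0.31 (SE 0.09) where *Wars* was lower, but its adjusted p of 0.0310 (limma) rose above 0.05 in 5 of the 6 fits with a library left out. The cytosolic value was the higher one in 10 of the 14 pairs in which both genes were measured, and the difference between the genes of a pair was not tested.

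**Figure D4:**
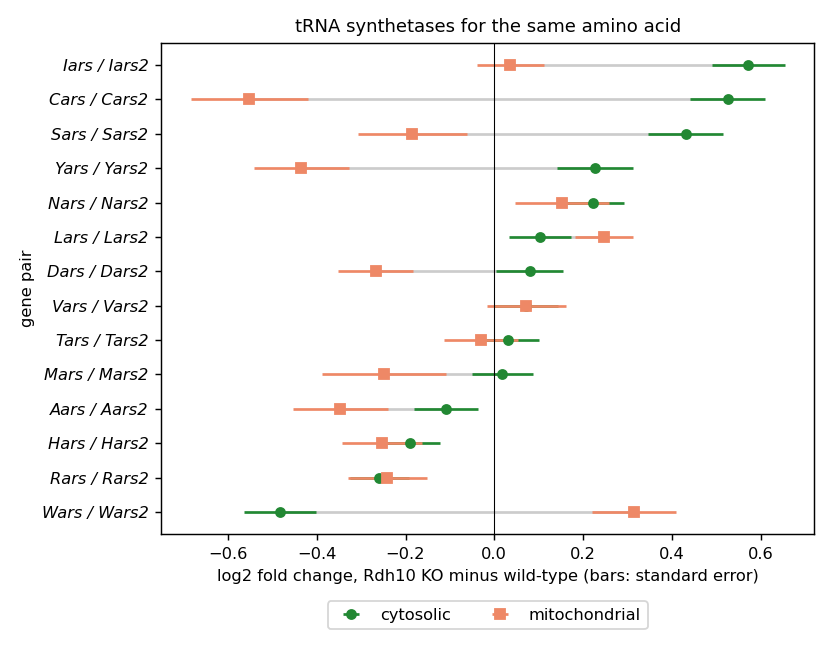
Log2 fold change, *Rdh10* KO minus wild-type (x axis), of the cytosolic (green circles) and the mitochondrial (orange squares) synthetase for the same amino acid in 14 pairs, with standard errors as bars. *Iars*, *Cars* and *Sars* lie to the right of their mitochondrial partners, and *Wars* at −0.48 lies to the left of *Wars2* at 0.31.

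The level of the genes per length of exon (RPKM, reads divided by exon length and library total) also varied. In wild-type the highest of the 47 were *Gars* (86.5), *Psat1* (77.3), *Phgdh* (74.4) and *Atf4* (65.0). The lowest were *Nupr1* (0.105), *Chac1* (0.287), *Aldh1l2* (0.318), *Slc7a3* (0.428) and *Slc7a11* (0.590). In *Rdh10* KO, *Chac1* reached a level of 6.39, above that of *Slc7a3* (3.01). The synthetases had the highest median level of the groups in wild-type, 35.7, against 23.6 for the enzymes, 5.19 for the kinases, 4.25 for the carriers and 3.21 for the ATF4 branch.

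The 3 *Rdh10* KO libraries differed in how far the genes were shifted. Relative to the wild-type mean, the median over the 47 genes was 0.33 in *Rdh10* KO replicate 1, 0.41 in replicate 2 and 0.60 in replicate 3 on the log2 scale, and between −0.01 and 0.01 in the wild-type libraries. Replicate 3 was the highest *Rdh10* KO library for 30 genes, replicate 2 for 12 and replicate 1 for 5, and replicate 1 was the lowest for 30. Of the 12 synthetases 11 were highest in replicate 3, the exception being *Wars*. *Chac1*, *Trib3*, *Sesn2*, *Vldlr* and *Eif2ak3* were highest in replicate 2. Replicate 1 had the most reads (27101025) and the lowest sum of blood markers, and replicate 3 the fewest reads (16392777) and the highest sum of blood markers. The part of depth and blood in these differences was not tested.

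Reads of some of these genes may be shared with neighbours. Exons of 17 of the 47 genes overlap an exon of another annotated gene on the other strand, and 3 of these also overlap one on their own strand. The libraries kept strand, but whether the counting used it is not given in the sources used here. *Ddit3* overlaps *Mars*, which had a log2 fold change of 0.02. *Shmt2* overlaps *Ndufa4l2*, which went from a mean of 11.4 normalized counts in wild-type to 241 in *Rdh10* KO, against a rise of the *Shmt2* mean from 2589 to 3833. *Eif2ak1* overlaps *Aimp2*, a scaffold protein of the synthetase complex, which fell by 0.37 on the log2 scale (adjusted p = 0.00573, limma), as did *Eif2ak1*, and for these genes the reads cannot be told apart without strand. *Atf5* overlaps *Nup62* and *Il4i1*, and *Psph* overlaps *Cct6a*, which had a log2 fold change −0.22 (adjusted p = 0.0452, limma).

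Genes of the same pathway outside the 47 were taken from lists of what each step contains. Of 115 such genes 114 were tested, and 23 rose, 22 fell and 69 did not pass, with a median log2 fold change of 0.01. Over all genes tested 10.3% rose and 9.12% fell, and the counts of each list are a description beside these shares. With wild-type replicate 1, 2 or 3 left out, 14, 11 and 12 of the pathway genes fell. In limma without its intensity trend 7 rose and 0 fell (448 and 197 of all 22921 genes), with 23 higher and 25 lower at an unadjusted p under 0.05. The median lay between −0.16 and 0.04 in 6 of the 8 lists, and was higher for other ATF4 targets and other carriers.

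Of 12 other ATF4 targets tested 7 rose and 5 did not pass, with a median log2 fold change of 0.92. *Ddit4* (REDD1), an inhibitor of mTORC1, had 1200, 1249 and 1020 normalized counts in wild-type and 5231, 12309 and 10300 in *Rdh10* KO, a difference of 2.92 on the log2 scale (SE 0.22, adjusted p = 2.10e-06, limma). *Stc2*, a secreted glycoprotein, had 112, 145 and 139 in wild-type and 556, 977 and 757 in *Rdh10* KO (2.5, SE 0.18, adjusted p = 1.26e-06, limma). *Ero1l*, the oxidase that drives disulfide formation in the endoplasmic reticulum, had 674, 634 and 632 in wild-type and 2304, 3982 and 3326 in *Rdh10* KO (2.27, SE 0.14, adjusted p = 5.65e-07, limma). Each of these 3 genes was lowest in *Rdh10* KO replicate 1 and highest in replicate 2, and still several-fold above wild-type in all. *Ddit4*, *Stc2* and *Ero1l* are also known as genes that low oxygen induces. *Atf3*, a transcription factor whose promoter is given above, had 64.5, 90.1 and 85.6 in wild-type and 218, 283 and 271 in *Rdh10* KO (1.69, SE 0.17, adjusted p = 2.88e-05, limma). *Jdp2*, which represses AP-1, rose by 0.94 (SE 0.13, adjusted p = 0.000246, limma), and *Eif4ebp1*, the inhibitor of cap-dependent translation, by 0.90 (SE 0.12, adjusted p = 0.000186, limma). Not all targets moved. *Cth*, which makes cysteine from cystathionine, had a log2 fold change of −0.07, the glutamine carrier *Slc38a2* −0.01, the tRNA exporter *Xpot* 0.08 and the mitochondrial protease *Lonp1* 0.03, and none of these passed. *Fgf21* had no read in wild-type and at most 2 in an *Rdh10* KO library.

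Of 18 other amino acid carriers 6 rose and 12 did not pass, with a median of 0.47. *Slc43a2* (LAT4), a carrier of large neutral amino acids, rose by 0.93 (SE 0.13, adjusted p = 0.000334, limma) and the glutamine carrier *Slc38a3* by 0.89 (SE 0.16, adjusted p = 0.00157, limma). *Slc38a4* (0.64), *Slc7a2* (0.68) and the taurine carrier *Slc6a6* (0.50) rose as well, whereas *Slc38a1* (0.02) and *Slc7a6* (0.09) did not pass. The list of other amino acid enzymes, in contrast, had a median of −0.13. Of its 15 genes 2 rose, 3 fell and 10 did not pass. Without wild-type replicate 1, 1 rose and 1 fell, and without wild-type replicate 2, 1 rose. *Cbs*, which starts the route from homocysteine to cysteine, had 61.4, 45.6 and 42.3 normalized counts in wild-type and 90.2, 114 and 108 in *Rdh10* KO (1.08, SE 0.22, adjusted p = 0.00342, limma). *Pycrl*, which reduces the same proline precursor as *Pycr1* in the cytosol, fell by 0.34 on the log2 scale (SE 0.07, adjusted p = 0.00505, limma).

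The other one-carbon enzymes had a median of −0.16, with 2 genes that rose, 5 that fell and 6 that did not pass. Only 1 rose with any single library left out other than *Rdh10* KO replicate 3. *Tyms* (thymidylate synthase) fell by 0.69 on the log2 scale (SE 0.08, adjusted p = 0.000103, limma) and *Gcsh*, a subunit of the glycine cleavage system, by 0.57 (SE 0.10, adjusted p = 0.00120, limma). *Shmt1*, the cytosolic counterpart of *Shmt2*, had 1868, 1876 and 1932 normalized counts in wild-type and 1550, 1490 and 1257 in *Rdh10* KO, a difference of −0.41 on the log2 scale (SE 0.08, adjusted p = 0.00397, limma). *Mthfd2l*, a relative of *Mthfd2* in the same organelle, had −0.43 (SE 0.09, adjusted p = 0.00454, limma). *Mthfd1l*, which follows *Mthfd2* in mitochondria, rose by 0.41 (SE 0.09, adjusted p = 0.00675, limma). Thus *Shmt2* and *Shmt1*, and *Mthfd2* and *Mthfd2l*, differed in sign, and the difference between the genes of a pair was not tested.

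The remaining lists had medians near 0. Among 12 subunits of eIF2, eIF2B and the eIF2 phosphatase 1 rose, 4 fell and 7 did not pass (median −0.09). Without wild-type replicate 1, 2 or 3 or *Rdh10* KO replicate 3, 1 fell, and 3 rose without *Rdh10* KO replicate 3 and 0 without any other library. The largest difference was that of *Eif2b2*, a subunit of the exchange factor that phosphorylated eIF2 inhibits, at −0.45 (SE 0.07, adjusted p = 0.000848, limma). Among 12 other cytosolic synthetases and proteins of their scaffold 1 rose, 3 fell and 8 did not pass (median −0.04), and 0 rose without wild-type replicate 1 or 3. Among 15 genes of the ATF6 and XBP1 branch of the unfolded protein response 2 rose, 3 fell and 10 did not pass (median 0.04), and without wild-type replicate 2 or 3, 1 fell. *Herpud1*, which takes part in the degradation of misfolded proteins and holds the same core in its promoter, rose by 0.81 (SE 0.11, adjusted p = 0.000218, limma). The chaperone *Hspa5* (BiP), the usual marker of that branch, had 20737, 22613 and 21880 normalized counts in wild-type and 18505, 19024 and 15809 in *Rdh10* KO, a difference of −0.29 on the log2 scale (SE 0.08, adjusted p = 0.0146, limma). Without wild-type replicate 2 or 3 the adjusted p of *Hspa5* was 0.10 and 0.0569 (limma), at −0.27 and −0.29.

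**Figure D5:**
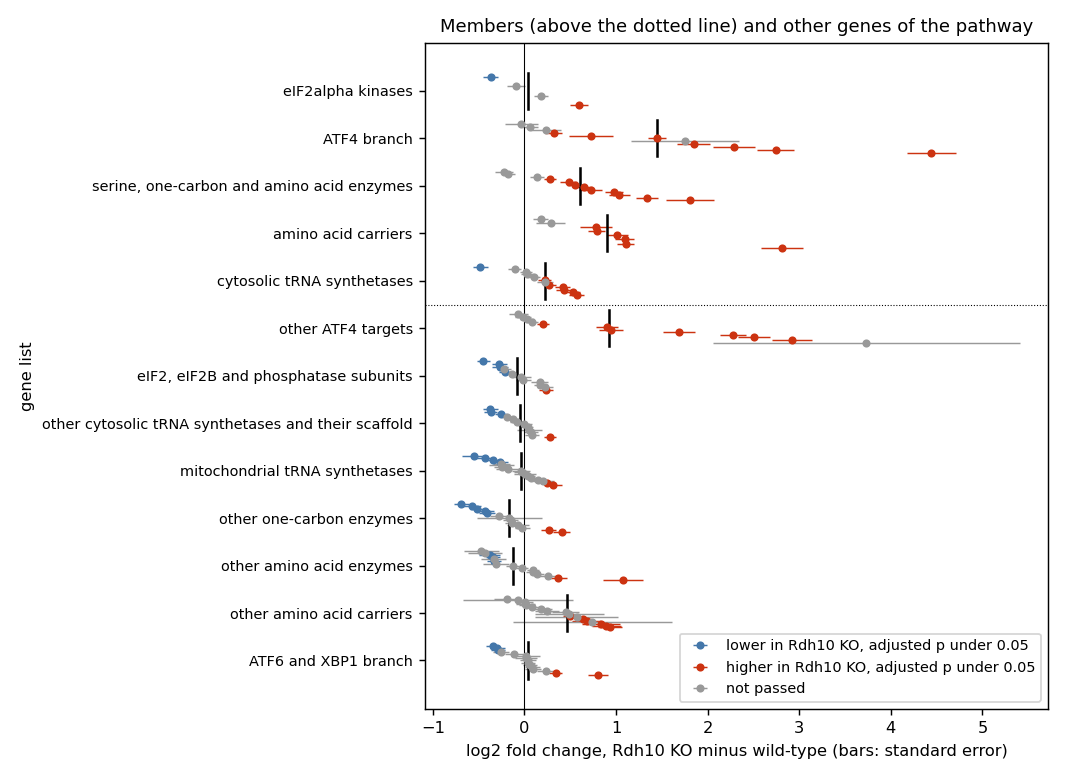
Log2 fold change, *Rdh10* KO minus wild-type (x axis), of each gene in the 5 groups of the 47 genes (above the dotted line) and in 8 lists of other pathway genes, with standard errors as horizontal bars and the median of each list as a vertical bar. Medians run from −0.16 for other one-carbon enzymes to 1.45 for the ATF4 branch, and the grey point at 3.73 is *Fgf21*, which had no read in wild-type.

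The core can be set beside the differences between genotypes. Of the 15 genes of the 47 that hold the core 9 rose, with a median log2 fold change of 0.72, and of the 24 with a promoter that lacks it 15 rose, with a median of 0.42. Outside the 47, 51 of 381 tested genes with the core rose (13.4%) and 1701 of 13510 without it (12.6%). The core was held by 6 of 90 other pathway genes with a promoter (6.67%), which were *Atf3*, *Fgf21*, *Jdp2*, *Eif2s3x*, *Slc7a7* and *Herpud1*. It was found in 0 of 14 promoters of mitochondrial synthetases and 0 of 9 promoters of the other cytosolic synthetases and their scaffold. No match says only that these letters are not in the window searched.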

How the data were processed

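RNA-seq of 3 wild-type and 3 *Rdh10* KO libraries was used. According to the study's methods, the authors made poly(A)-selected libraries that keep strand, aligned reads to mm10 with TopHat, estimated transcript abundance by Expectation–Maximization, normalized as FPKM and tested with the likelihood ratio test of edgeR. The signal deposited by the authors is, in fact, not divided by gene length. Its values are whole reads divided by 1 size factor per library. Whole reads divided by that factor reproduced 100% of values in each library (tolerance 0.006 on the scale of the deposited values). Such values are called normalized counts. The fit was set for a normalized table and was kept. The 1 line that names no gene was left out, and 0 columns of samples were unused.

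The 47 genes and all gene lists were chosen with earlier results of these data known, and the markers and pathway lists come from general knowledge. The genes named are every one of the 47, the pathway genes past an adjusted p of 0.05 and a log2 fold change of 0.85, and others picked after their values were seen. Limma 3.58.1 in R 4.3.3 (lmFit, eBayes with an intensity trend, no covariate) was applied to log2(value + 0.1) for genes with a mean above 0.5, with Benjamini-Hochberg adjustment over 22921 genes. For genes with few reads, fold changes on this scale depend on the added 0.1 and can lie above or below the log2 ratio of the means. The 18 alternatives were pseudocounts of 1 and 0.01, no filter and a mean above 10, median, quantile and TMM scaling, no intensity trend, a block for the replicate number, edgeR 4.0.16 (quasi-likelihood and likelihood ratio) and DESeq2 1.42.0 on recovered reads, and leaving out each library. Gene positions, exons and lengths came from GENCODE mouse release 21 (GRCm38), where 26288 identifiers matched, and promoters from RefSeq (GRCm38.p6), matched by symbol, Ensembl identifier or a unique synonym. Python 3.11.15 with pandas 2.3.3 and matplotlib 3.10.9 was used for tables and plots. A library held 16392777 to 27101025 reads on genes, and SD and p-values measure the spread between pools of embryos. One gene of the pathway lists is counted but not reported here by name.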

Additional observations from a re-analysis of the deposited data

How the results depend on the processing

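Of 564 log2 fold changes of the 47 genes under the 12 alternatives that use all 6 libraries, 524 kept their direction and their side of the adjusted p of 0.05, and of 282 with 1 library left out, 255 did. For the 9 pathway genes past both thresholds this held for 105 of 108 and 54 of 54. The number of the 47 genes that rose was 26 to 31 under these 12 alternatives, except for limma without an intensity trend (12 rose and 0 fell; 7 pathway genes rose and 0 fell), and 24 to 30 with 1 library left out. The pathway genes that fell numbered 11 to 23 with 1 library left out. In the same fits 12 to 16 of the 47 rose past the log2 cut-off. *Atf5* turned to 0.023 and 0.025 in edgeR's quasi-likelihood and likelihood ratio tests and 0.020 in DESeq2 and ranged from −0.27 to 0.22 with 1 library left out. Median scaling, which shifted the median of all genes to −0.03, turned *Mars* to −0.022 and *Tars* to −0.0086, and they ranged from −0.023 to 0.048 and from −0.030 to 0.074 with 1 library left out. The causes were not tested.

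Libraries with the same replicate number did not deviate together, with correlations of −0.03, −0.03 and −0.07 over 15272 genes. This cannot show whether pools with the same number shared a preparation. With the number as a block 26 of the 47 rose and 2 fell, without *Atf4*, *Cebpb* and *Nars*, and 19 pathway genes rose and 15 fell. Pools of 3 embryos, 3 per group, and few reads (*Nupr1*, *Chac1* in wild-type) limit precision, and counts with unknown strand limit genes that overlap others.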
